A study of Homo sapiens with 5 samples.

Results

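The regions described here are 574 places in the genome where p53 was listed only after ionizing radiation (IR) and where JMJD3 was listed after IR as well. They were selected on the measured lists themselves: a p53 site of irradiated cells was taken when it shared no base with a p53 site of untreated cells and at least 1 bp with a JMJD3 site of irradiated cells. The irradiated cells held 3232 p53 sites in all, of which 2889 were listed only after IR, and the 574 make up 19.9% of these. They are called co-listed sites below. Of the 574, 79 lay on JMJD3 sites that untreated cells held already, and 495 did not. Since the lists chose the regions, the number of regions and the overlap with JMJD3 after IR are a description and were not tested.

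The cells were BJ fibroblasts, a human foreskin line kept dividing by added telomerase (hTERT), which all groups share. They were either untreated or exposed to 10 Gy of IR from an X-ray source and harvested 6 h later by the sample labels, whereas the study's text gives a somewhat shorter time. Binding was mapped by ChIP-seq, in which DNA fragments bound by a protein are collected with an antibody and sequenced, with the p53 antibody DO-1 or a rabbit antibody raised against part of JMJD3. There was 1 library for each protein and exposure, and the only control library in the labels is a rabbit IgG precipitate of untreated cells. Untreated cells held 361 p53 and 4717 JMJD3 sites, and irradiated cells 35133 JMJD3 sites. The smallest width was 200 bp in every list but that of JMJD3 after IR, which holds narrower sites too. Each list gives positions in the hg18 assembly and nothing on signal height or read number, so depth is unknown, a site is either listed or not, and a protein bound below the threshold of peak detection goes unlisted.

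p53 is a transcription factor that MDM2, a ubiquitin ligase, marks for destruction until DNA breaks interrupt this. It recognises a repeated sequence called a response element, which may lie far from a gene's start, and its best known target is CDKN1A, whose product p21 halts division. JMJD3, also called KDM6B, removes methyl groups from lysine 27 of histone H3, a mark that Polycomb proteins lay down on silent genes. Unlike p53 it is not known to read DNA sequence itself. The question put to these lists was where JMJD3 lies at p53 sites that appear with damage, and how those places differ from other p53 sites.

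The co-listed site with the least overlap, at chr10:102035637-102036095, shared 2 bp with its JMJD3 site. The next smallest overlaps, at chr6:123161214-123161469 and at chr7:115687338-115687618, shared 5 bp and 10 bp. Just outside the selection was a p53 site at chr22:23221077-23221386, which missed a JMJD3 site by 1 bp. Sites at chr2:24160532-24160735 and at chr11:12044082-12044434 missed one by 12 bp and 13 bp. Few of the 2315 other induced p53 sites were such near misses. A JMJD3 site after IR lay within 100 bp of 24 of them (1.04%, exact 95% binomial interval 0.665 to 1.54%) and within 1 kb of 147 (6.35%, 5.39 to 7.42%). These intervals, here and below, are Clopper-Pearson intervals and cover counting error only, since neighbouring sites are not independent and no library was repeated.

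At most co-listed sites JMJD3 lay over the middle of the p53 site. A JMJD3 site covered the centre of 420 of the 574 p53 sites (73.2%, 69.3 to 76.8%). The centres of both sites were a median of 65.8 bp apart, with quartiles of 31 and 133 bp, and in 373 pairs (65.0%) they were at most 100 bp apart. JMJD3 covered a median of 62.2% of the p53 site. In 148 cases (25.8%) the JMJD3 site lay wholly inside the p53 site, in 90 (15.7%) the p53 site lay wholly inside the JMJD3 site, and in 336 (58.5%) each reached beyond the other. The requirement that the sites overlap limits these distances, and its part in them was not tested. A single JMJD3 site was found at 566 co-listed sites and 2 JMJD3 sites at 8, which gives 582 JMJD3 sites in all, none of them shared by 2 co-listed sites.

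High coverage over the p53 site itself restates the selection, so the flanks were described from further JMJD3 sites alone, those that do not overlap the p53 site, a measure chosen after the data were seen. Over the 495 sites without JMJD3 before IR, further JMJD3 sites after IR covered a mean of 2.61% of positions 500 to 1000 bp from the p53 centre and 1.59% of positions 2000 to 5000 bp away. Over the 79 sites with JMJD3 before IR the values were 8.29% and 3.61%, and around the other induced p53 sites 0.772% and 0.467%. In both ranges of distance the coverage was highest around the 79 sites and lowest around induced p53 sites without JMJD3. At the 112 p53 sites that were listed before IR and had JMJD3 after IR it was 3.21% and 2.99%, above the 495 as well. The list of untreated cells, which was not used to choose the 574 but divides them into 79 and 495, gave 2.19% for the 79, 0.331% for the 495 and 0.0805% for the other induced sites at 500 to 1000 bp, where the 112 were at 0%. At 2000 to 5000 bp it gave 1.29%, 0.161% and 0.0680%, and 0.761% for the 112. At 5000 to 10000 bp it gave 0.332%, 0.271% and 0.104%, and 0.831% for the 112, so the place of the 112 in the order changed with the distance.

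**Figure D1:**
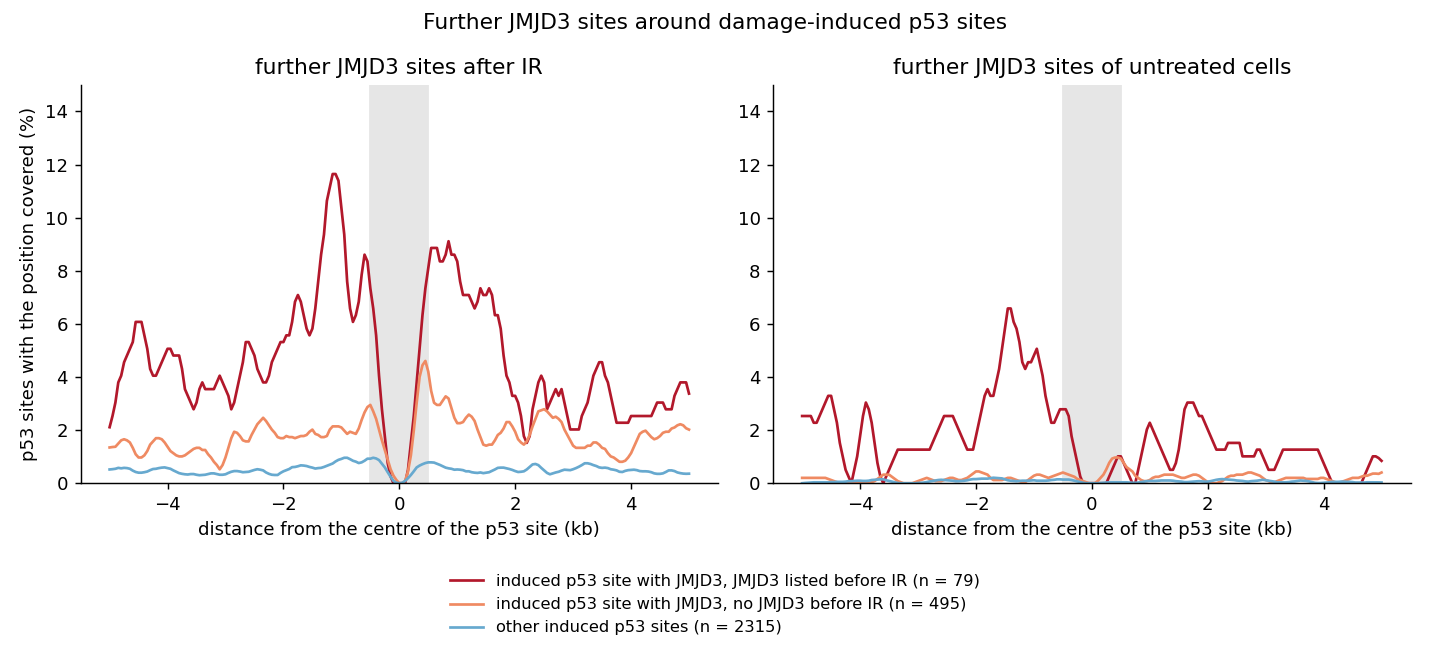
Share of p53 sites (%) at which a position is covered by a further JMJD3 site, one that does not overlap the p53 site, against the distance from the p53 centre in kb, for JMJD3 after IR (left) and in untreated cells (right), as a running mean over 5 positions 50 bp apart, with lines for co-listed sites with JMJD3 before IR (n = 79), those without it (n = 495) and the other induced p53 sites (n = 2315). In the shaded band, 0.5 kb to each side, overlapping JMJD3 sites are left out, which brings the lines to 0 at the centre; outside it the line of the 79 lies above both others through most of the flanks, and after IR the line of the 495 lies above that of the other induced sites.

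Among induced p53 sites, those with and without JMJD3 had nearly the same median width. That of the co-listed sites after IR had a median of 273 bp (exact 95% interval of the median 263 to 282 bp), quartiles of 216 and 354 bp and a maximum of 857 bp. The other induced p53 sites had a median of 272 bp (267 to 278 bp). Width stands here for the extent of a site, since the lists hold no signal. When the 2889 induced p53 sites were ranked by width and divided into 5 groups, the share with JMJD3 was 20.2% in the narrowest (117 of 578), then 18.9%, 20.9% and 17.0%, and 22.4% in the widest (129 of 577). The intervals of these 5 shares all overlap, although the few sites of 500 to under 600 bp stood higher than those under 400 bp, as given below. The order of the medians depended on the overlap rule: with at least 50% of the p53 site covered the median was 249.5 bp at co-listed and 277 bp at the other induced sites, and with the p53 centre inside the JMJD3 site it was 258 bp and 275 bp. Both rules favour narrow p53 sites and count sites that JMJD3 overlaps less among the others. Their part in this order was not tested. Sites at the smallest width in the list, 200 bp, made up 55 of the 574 (9.58%, 7.30 to 12.3%) and 292 of the 2315 others (12.6%, 11.3 to 14%).

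p53 sites that were listed before IR too were wider. These had a median width of 541 bp (522 to 557 bp) after IR, and 112 of 343 (32.7%, 27.7 to 37.9%) overlapped a JMJD3 site after IR. The p53 sites of these 112 had a median width of 626 bp (587 to 666 bp). At those 112 the JMJD3 site had a similar median width (212 bp, 196 to 259 bp) to that at co-listed sites (219 bp, 206 to 228 bp), but it covered a smaller part of the wider p53 site, a median of 36.9% (34 to 42.8%) against 62.2% (58.9 to 65.4%). Within classes with the same limits of width, chosen after the values were seen, the higher share did not hold throughout. Among sites of 400 to under 500 bp it was 55 of 259 induced sites (21.2%, 16.4 to 26.7%) and 23 of 102 sites listed before (22.5%, 14.9 to 31.9%). Among those of 500 to under 600 bp it was 24 of 65 (36.9%, 25.3 to 49.8%) and 25 of 92 (27.2%, 18.4 to 37.4%). At 600 bp or more it was 7 of 22 (31.8%, 13.9 to 54.9%) and 63 of 118 (53.4%, 44.0 to 62.6%). The intervals overlap in these 3 classes. Under 400 bp, where 488 of the 574 co-listed sites fall, the share was 19.2% of induced sites (17.7 to 20.8%) and 1 of 31 sites listed before (3.23%, 0.0816 to 16.7%). The median width in that class was 258 bp for induced sites and 377 bp for sites listed before. At 600 bp or more it was 644 bp and 698 bp, so the classes do not fully match the widths.

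**Figure D2:**
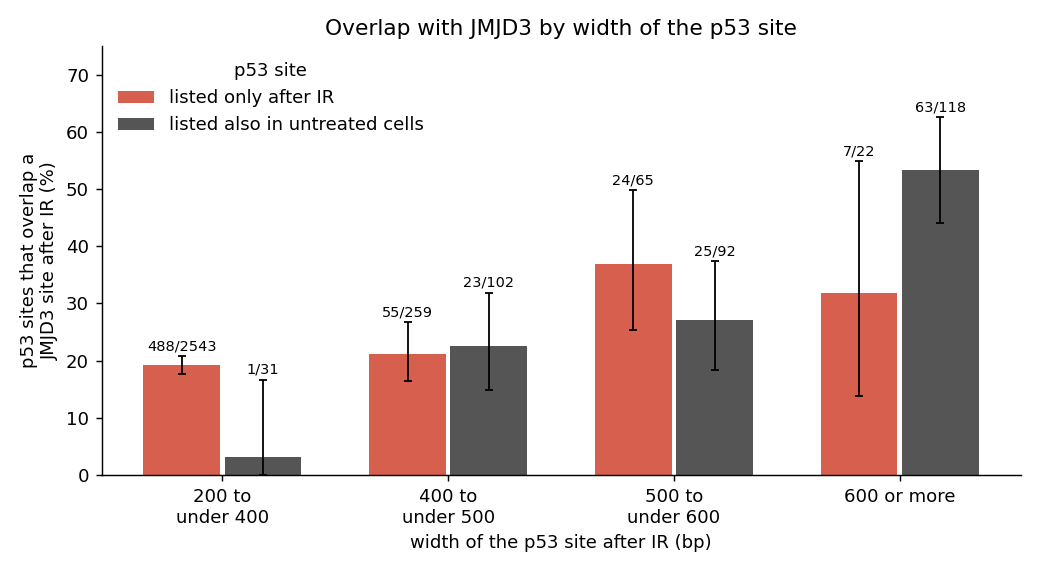
Share of p53 sites (%) that overlap a JMJD3 site after IR, by width of the p53 site in bp, for sites listed only after IR and sites listed also in untreated cells. Bars start at 0, error bars are exact 95% binomial intervals, and the numbers above them are sites with JMJD3 of all sites; the intervals overlap from 400 bp upwards and do not overlap under 400 bp.

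The JMJD3 sites at co-listed p53 sites were somewhat wider than JMJD3 sites elsewhere. The 582 had a median width of 218 bp (205 to 226 bp), against 186 bp (185 to 187 bp) for the 34423 JMJD3 sites that overlapped no p53 site after IR. Of the 582, 252 (43.3%, 39.2 to 47.4%) were under 200 bp, and of the 34423, 56.2% (55.7 to 56.7%). The 582 were chosen by overlap, which favours wide sites, and its part in this difference was not tested. In 198 of the 574 (34.5%) the widest JMJD3 site was wider than the p53 site. Its width differed with the state before IR. At the 79 sites with JMJD3 in untreated cells the median was 345 bp (313 to 438 bp), and at the 495 others 205 bp (194 to 217 bp). JMJD3 covered a median of 93.2% of the p53 site (85.1 to 100%) at the 79 and 58.1% (55.0 to 61.7%) at the 495. The same contrast held away from p53, where JMJD3 sites with and without a counterpart in untreated cells had medians of 342 bp and 178 bp.

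**Figure D3:**
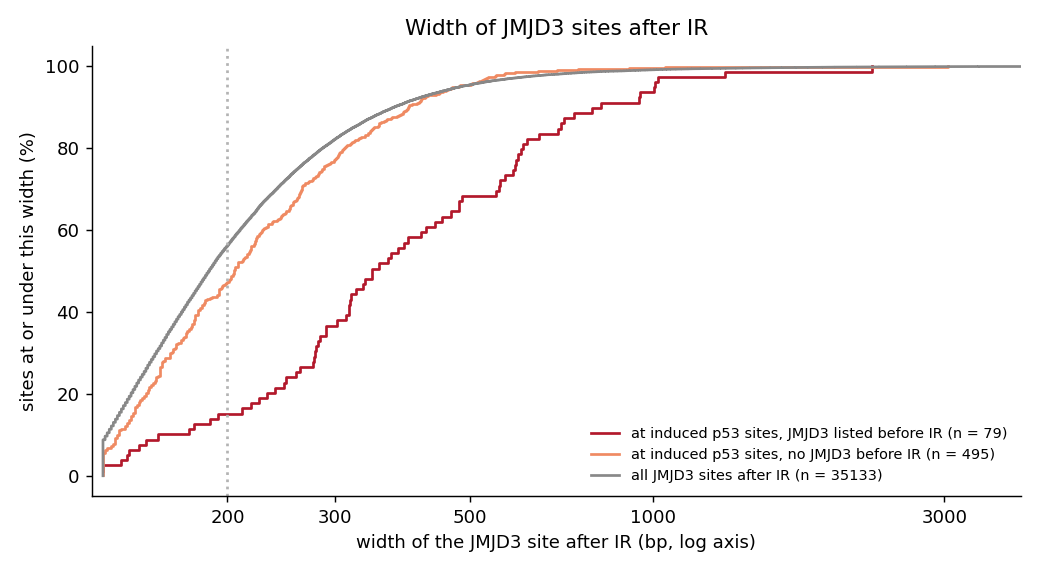
Cumulative share of JMJD3 sites after IR (%) at or under a given width in bp, on a log axis, for the widest JMJD3 site at co-listed p53 sites with JMJD3 before IR (n = 79), at those without (n = 495) and for all JMJD3 sites after IR (n = 35133). The dotted line marks 200 bp: 15.2% of the first set and 47.1% of the second lie under it.

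JMJD3 was listed before IR at few p53 sites of any kind. Over all 3232 p53 sites 2.63% lay on JMJD3 sites of untreated cells. Among the 574 the share was 13.8% (11.1 to 16.9%). Among the other induced p53 sites it was 2 of 2315 (0.0864%, 0.0105 to 0.312%), a value that the selection holds near 0, since these sites lack JMJD3 after IR and untreated JMJD3 sites overlapped a JMJD3 site after IR in 86.8% of cases (85.8 to 87.8%). Among the 112 p53 sites listed before IR that had JMJD3 after IR it was 3 (2.68%, 0.556 to 7.63%). The interval of the co-listed sites lies above that of the 112, which had JMJD3 after IR as well. With p53 sites of at least 400 bp alone, a limit chosen after the values were seen, the shares were 14 of 86 (16.3%, 9.20 to 25.8%) for co-listed sites and 3 of 111 (2.70%, 0.561 to 7.70%) for sites that had held p53 before IR. JMJD3 sites in general give the scale for these values: 11.9% of all 35133 JMJD3 sites after IR overlapped one of untreated cells, and so did 85 of the 582 at co-listed sites (14.6%, 11.8 to 17.7%). Counting only JMJD3 sites of at least 200 bp, 71 of 330 did at co-listed sites (21.5%, 17.2 to 26.3%) and 22.8% (22.1 to 23.4%) away from p53. Under 200 bp it was 14 of 252 (5.56%, 3.07 to 9.15%) and 3.42% (3.16 to 3.68%). The JMJD3 sites at co-listed p53 sites had thus a counterpart before IR about as often as JMJD3 sites of similar width elsewhere, with overlapping intervals in both classes.

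At the 79 sites that held JMJD3 before p53 was listed, the JMJD3 site of untreated cells had a median width of 275 bp (252 to 307 bp), and its centre was a median of 71 bp from that of the later p53 site (53.5 to 95.5 bp). After IR the JMJD3 centre was a median of 61.5 bp away (46.5 to 73 bp), nearer at 41 sites and farther at 38. Before and after IR the JMJD3 sites overlapped each other at 78 of the 79. Since both JMJD3 sites had to overlap the same p53 site, the selection limits these distances and favours this overlap, and its part in them was not tested. The JMJD3 site was wider after IR at 58 and narrower at 21, and the median ratio of the widths was 1.21 (1.12 to 1.33). Counted by JMJD3 site, 62 of 85 were wider after IR (72.9%, 62.2 to 82.0%), against 2484 of 4090 away from p53 (60.7%, 59.2 to 62.2%), where the median ratio was 1.14. The smallest width differs between these JMJD3 lists, 200 bp in untreated cells and less than that after IR, and whether sites were detected with the same settings is not given in the sources used here. The JMJD3 sites after IR at co-listed sites were also chosen by overlap with p53, which favours wide sites, while those away from p53 were not. The part of the lists and of this selection in the widths and ratios was not tested. The p53 sites themselves had a median width of 288 bp (255 to 313 bp) at the 79 and 271 bp (261 to 281 bp) at the 495, with overlapping intervals.

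The widest p53 site among the 79 was at chr20:17778577-17779296 and was 720 bp wide. Its JMJD3 site was 224 bp wide in untreated cells and 819 bp after IR, when it covered the whole p53 site with its centre 2.50 bp from the p53 centre. The next, at chrX:153408183-153408867, showed the reverse order of widths: the widest of 2 JMJD3 sites in untreated cells was 353 bp, and the one after IR 143 bp, covering 20.9% of the p53 site. At chr12:100795110-100795656 JMJD3 went from 311 bp to 705 bp and covered the whole 547 bp p53 site. At chr6:101435330-101435876 it went from 426 bp to 612 bp and at chr7:5640508-5641048 from 275 bp to 592 bp. At 4 of these 5 sites the JMJD3 site was wider after IR.

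Among the 495, the widest p53 site lay at chr11:60821404-60822260. It was 857 bp wide and held a JMJD3 site of 695 bp with its centre 17 bp from the p53 centre, while the nearest p53 site of untreated cells was 522 kb away and the nearest JMJD3 site of untreated cells 103 kb. Wide p53 sites did not always carry wide JMJD3 sites. The site at chr1:209817099-209817929 was 831 bp wide, and its JMJD3 site of 157 bp lay at the edge, 417 bp from the p53 centre, and covered 9.27% of it. The site at chr3:49370779-49371430 held 2 JMJD3 sites, which together covered 83.3%, and 8 further JMJD3 sites lay within 10 kb of it. The sites at chr19:44555047-44555688 and at chr2:40320719-40321321 had JMJD3 sites of 354 bp and 305 bp and no further JMJD3 site within 10 kb. The next widest p53 sites with 2 JMJD3 sites lay at chr7:158304049-158304560 and at chr4:174139962-174140435, with 60.5% and 48.7% of the p53 site covered and no other JMJD3 site within 10 kb. Ranking by JMJD3 width gave other places. The widest JMJD3 site at a co-listed site, 3041 bp, contained the p53 site at chr6:36758174-36758610, with 8 further JMJD3 sites within 10 kb after IR and the nearest JMJD3 site of untreated cells 71.5 kb away. A p53 site of untreated cells lay 4.93 kb from it. The p53 sites at chr7:5532205-5532545 and at chr2:192269199-192269550 lay inside JMJD3 sites of 2284 bp and 1311 bp, had 11 and 13 further JMJD3 sites within 10 kb, and overlapped JMJD3 sites of untreated cells of 2206 bp and 649 bp. In these 3 cases JMJD3 spread over far more DNA than p53.

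Further JMJD3 sites lay near co-listed sites more often than near the other induced p53 sites. A further JMJD3 site after IR, one that did not overlap the p53 site, was found within 10 kb of 288 of the 574 (50.2%, 46.0 to 54.3%) and of 28.4% of the other induced p53 sites (26.6 to 30.3%). At least 3 such sites were found at 108 (18.8%, 15.7 to 22.3%) and at 4.23% (3.45 to 5.13%). The median gap to the next JMJD3 site was 9.94 kb (8.28 to 11.9 kb) and 26.6 kb (24.7 to 28.6 kb). This was not particular to co-listed sites: of the 112 p53 sites listed before IR with JMJD3 after IR, 72 had a further JMJD3 site within 10 kb (64.3%, 54.7 to 73.1%) and 23 at least 3 (20.5%, 13.5 to 29.2%). JMJD3 sites at co-listed p53 sites were nonetheless more isolated than JMJD3 sites away from p53: 302 of 582 (51.9%, 47.7 to 56.0%) had another JMJD3 site within 10 kb, against 63.3% (62.8 to 63.8%). A JMJD3 site of untreated cells that did not overlap the p53 site lay within 10 kb of 65 co-listed sites (11.3%, 8.85 to 14.2%) and of 4.41% of the other induced sites (3.61 to 5.32%), while the share at the 112 was 12.5% (7.01 to 20.1%). The 79 sites with JMJD3 before IR had higher shares than the 495 on both counts, with a further JMJD3 site after IR near 57 (72.2%, 60.9 to 81.7%, an interval that overlaps that of the 112), against 231 of the 495 (46.7%, 42.2 to 51.2%). For JMJD3 of untreated cells it was 21 of the 79 (26.6%, 17.3 to 37.7%) and 44 of the 495 (8.89%, 6.53 to 11.7%).

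Other p53 sites, too, were nearer to co-listed sites than to the other induced sites. Another p53 site after IR lay within 10 kb of 65 of the 574 (11.3%, 8.85 to 14.2%) and of 139 of the 2315 others (6.00%, 5.07 to 7.05%), and the median gap to the next p53 site was 143 kb (124 to 165 kb) against 209 kb (197 to 223 kb). At the 112 p53 sites listed before IR with JMJD3 after IR it was 20 (17.9%, 11.3 to 26.2%), with a median gap of 74.7 kb (34.7 to 135 kb). The share was alike at the 79 (11.4%) and at the 495 (11.3%). A neighbour within 10 kb was another co-listed site for 20 of the 574 (3.48%, 2.14 to 5.33%), an induced p53 site without JMJD3 for 37 (6.45%, 4.58 to 8.78%) and a p53 site already listed before IR for 16 (2.79%, 1.60 to 4.49%), and a site with several neighbours counts under more than 1 kind. For the 2315 others these 3 kinds of neighbour stood at 1.51% (1.06 to 2.10%), 3.67% (2.94 to 4.52%) and 0.907% (0.562 to 1.38%). A site of the untreated p53 list lay within 10 kb of 16 of the 574 (2.79%) and of 22 of the others (0.95%, 0.596 to 1.44%), and of 5 of the 112 (4.46%, 1.47 to 10.1%). At 6 of the 574 (1.05%, 0.385 to 2.26%) it lay within 1 kb, so that p53 was listed beside the co-listed site before IR without overlapping it. The same held at 4 of the 2315 others (0.173%, 0.0471 to 0.442%) and at 2 of the 112 (1.79%, 0.217 to 6.30%). One of the 6 co-listed sites belongs to the chromosome 4 element that the study examined, where the p53 site at chr4:153400483-153400771 was 525 bp from a p53 site of untreated cells and 69 bp from another p53 site after IR. Its JMJD3 site was 262 bp wide and covered 70.2% of it, and the nearest JMJD3 site of untreated cells was 974 kb away.

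**Figure D4:**
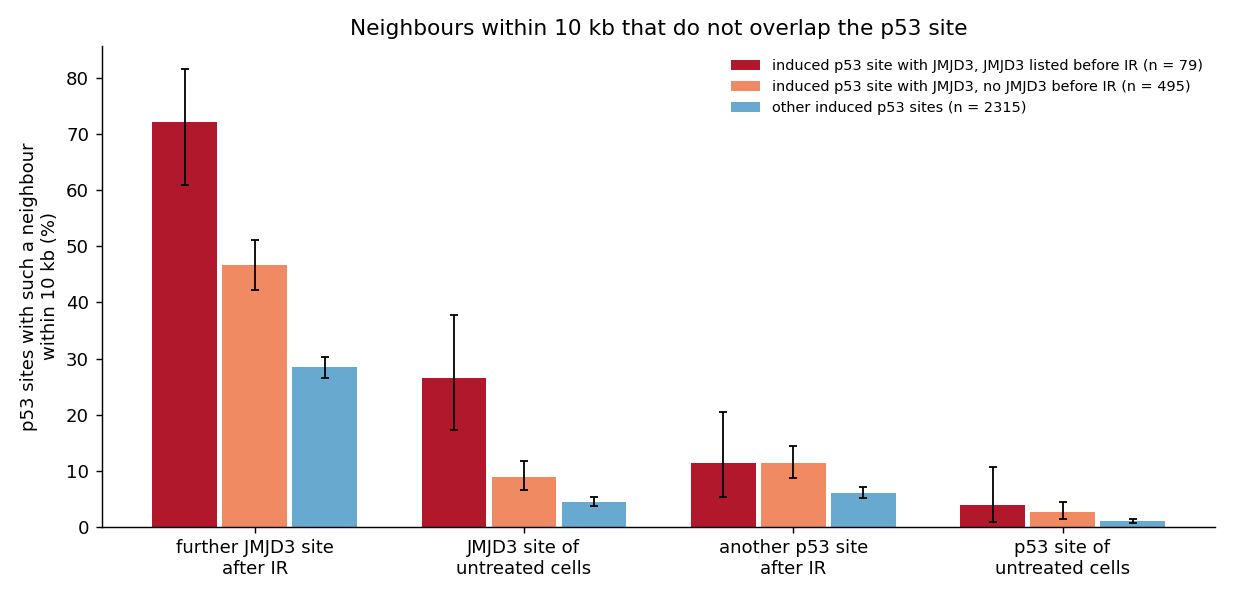
Share of p53 sites (%) with a neighbouring site within 10 kb that does not overlap them, for 4 kinds of neighbour, at co-listed sites with JMJD3 before IR (n = 79), at those without (n = 495) and at the other induced p53 sites (n = 2315). Bars start at 0 and error bars are exact 95% binomial intervals; for JMJD3 neighbours the 3 sets follow the same order in both lists, while for p53 neighbours both sets of co-listed sites have intervals that overlap each other.

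Co-listed sites did not form long runs. Chained by gaps of at most 10 kb, they gave 10 pairs, which hold 20 of the 574, and no group of 3. The closest pair, chr17:76339921-76340270 and chr17:76340330-76340636, was 59 bp apart, with JMJD3 sites of 195 bp and 158 bp. The p53 site at chr6:36754126-36754398 with a JMJD3 site of 203 bp lay 3.77 kb from the site under the widest JMJD3 site. In none of the 10 pairs did both p53 sites share a JMJD3 site. The pairs are named after their values were seen.

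All chromosomes but Y held co-listed sites, from 5 on chromosome 21 to 62 on chromosome 1. As a share of the induced p53 sites of a chromosome they were fewest on chromosome 13, with 7 of 71 (9.86%, 4.06 to 19.3%), and most on chromosome 22, with 18 of 45 (40%, 25.7 to 55.7%). These chromosomes were picked as the ends of the order, so their difference was not tested, and the intervals of neighbours in the order overlap throughout. Chromosome 17 followed with 30 of 119 (25.2%, 17.7 to 34%), and chromosomes 18 and 4 were next to the lowest with 13.8% and 14.5%. Chromosome 22 was also among those with most JMJD3 sites after IR for each induced p53 site, 16.8, and chromosome 13 among those with fewest, 10.2. The order was not the same throughout, since chromosome 19 had 18.1 with a share of 24%, and chromosome X 15.2 with 15.4%. On chromosome Y none of 4 induced p53 sites was co-listed, which allows a share of up to 60.2%.

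**Figure D5:**
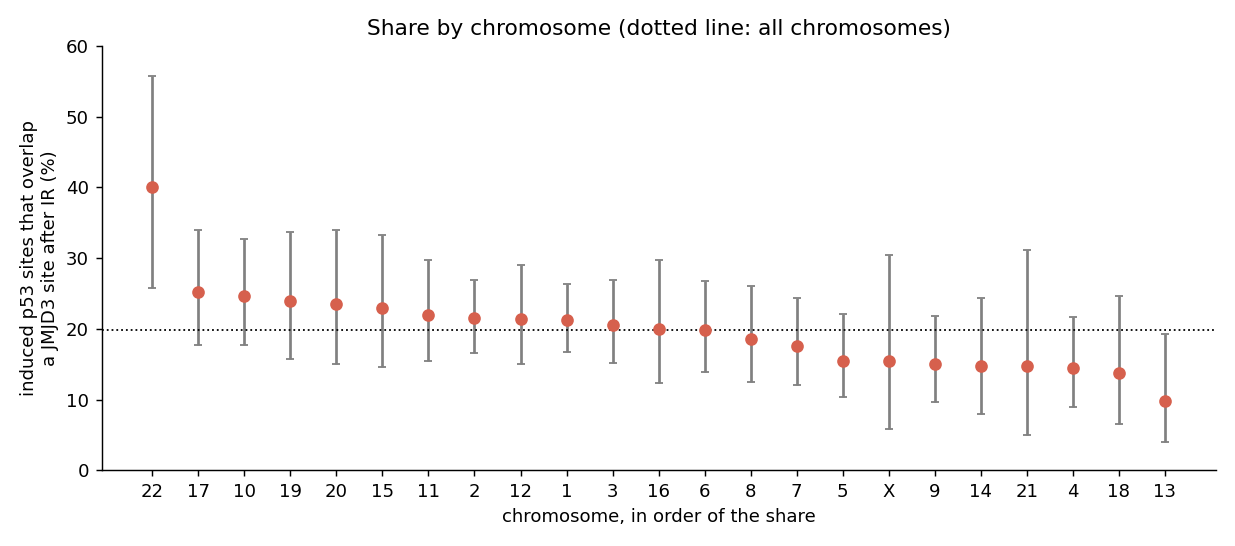
Share of the induced p53 sites of a chromosome (%) that overlap a JMJD3 site after IR, in order of the share, without chromosome Y. Points are shares, bars exact 95% binomial intervals, and the dotted line is the share over all chromosomes, 19.9%; chromosomes 22 (40%) and 13 (9.86%) are the ends of the order.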

How the data were processed

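Per the labels and the study's methods, the authors aligned tags to hg18 with Bowtie 0.12.7, discarded those that aligned to several places, and ran MACS2 on each library with IgG as the control. The threshold is not given in the sources used here. The deposited lists, 4 in number and from 1 library each, hold positions alone (3 columns), with no score or signal. Depth is unknown.

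Positions are printed counting from 1. Overlaps, gaps between edges and coverage were computed in Python 3.11.15 with numpy 2.4.6 and pandas 2.3.3, and exact 95% intervals with scipy 1.17.1. The interval of a median is taken from its order statistics. Where several JMJD3 sites overlapped a p53 site, the widest gave width and centre. The steps were tested on simulated data. With 1 library per group no test between conditions or sets was made.

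The regions and the rules for naming sites were chosen with earlier results of these data known. Named are the 5 widest p53 sites with and without JMJD3 before IR, the 3 with the widest JMJD3 site, the 3 with most JMJD3 sites, groups of 3 or more within 10 kb (none was found), the sites at the limits of the selection, and the chromosome 4 element of the study. Gene names, distances to genes and sequences were not used here, because the tables given for annotation use GRCh38 and coordinates were left in hg18.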

Additional observations from a re-analysis of the deposited data

How the results depend on the processing

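Each of the 10 main values was recomputed under 8 other settings, and the 4 neighbour shares at 2 other distances, 88 comparisons in all. Of these, 54 stayed within the interval of the main value (for the number of sites, within 1.5 times) and 34 moved beyond it. The 40 neighbour shares under these settings were all higher at co-listed sites than at the other induced p53 sites. Which sites count as the others changed with the setting. Under the rules that ask for more overlap or for wider JMJD3 sites, the others include sites that a JMJD3 site after IR overlaps. Under the remaining settings the others lack JMJD3 after IR on the site itself, by the selection. The order of the median p53 widths did change, as given next.

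With at least 50% of the p53 site covered by 1 JMJD3 site, 378 sites were co-listed (13.1% of induced p53 sites), 18.8% had JMJD3 before IR, the median widths were 249.5 bp for p53 (277 bp at the others) and 259 bp for JMJD3, the centres were 45.5 bp apart, and 55.3% had a further JMJD3 site within 10 kb. With the p53 centre inside the JMJD3 site, the values were 14.5%, 17.4%, 258 bp (275 bp at the others), 243 bp and 44.5 bp. With JMJD3 sites within 1 kb taken as overlapping, 25% were co-listed, 11% had JMJD3 before IR, the centres were 116 bp apart, and 44.1% had a further JMJD3 site. With JMJD3 sites of at least 200 bp, 329 sites remained by construction (11.4%), 20.4% had JMJD3 before IR, the JMJD3 width was 299 bp, the centres were 74.5 bp apart, and 42.2% had a further JMJD3 site. With the wider 50% of p53 sites, 253 remained, with a p53 width of 366 bp, centres 97.5 bp apart and another p53 site near 7.11%. With p53 sites merged within 1 kb this share was 8.50%. Within 5 kb, 8.01% had another p53 site, 39.0% a further JMJD3 site and 8.01% a JMJD3 site of untreated cells. Within 50 kb the values were 26.3%, 81.4% and 27.7%, and 5.75% had a p53 site of untreated cells. Stricter, looser and wider rules move the number and share of co-listed sites and the neighbour shares at other distances by construction. Their part in the other moves, such as that of the share with JMJD3 before IR, was not tested. Autosomes alone, and leaving out sites within 1 kb of a p53 site of untreated cells, moved none of the 10 values.

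The 4 classes of p53 width in the report were added after the data were seen, and the other settings were chosen with earlier results of these data known. No paired analysis was possible because each group has 1 library. Unknown depth limits every value that rests on a site being listed or not.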
